A study of Mus musculus with 9 samples.

Results

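The ligands of the epidermal growth factor (EGF) family and the ErbB receptors they bind were followed through upper lip and primary palate fusion in 10 genes, the 4 receptors Egfr, Erbb2, Erbb3 and Erbb4 and the 6 ligands Tgfa, Areg, Ereg, Hbegf, Btc and Nrg1. The genes were taken by symbol from a table of read counts for 54532 genes, in which each of the 10 symbols had 1 row. The tissue was the lambdoidal junction, where the nasal and maxillary prominences of the embryonic face meet, from C57BL/6J mouse embryos. There were 3 bulk RNA-seq libraries per stage (E10.5, E11.5, E12.5), each made from the pooled tissue of many embryos. The 3 groups differed by embryonic stage only, and no transgene, mutation or treatment was given for any of them. E11.5 vs. E10.5 is called the first interval, E12.5 vs. E11.5 the second interval and the comparison of E12.5 with E10.5 the full span. The p-values below measure the spread between these pools, and no single embryo or cell type was measured.

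EGF family ligands are made as membrane-anchored precursors, and sheddases cut them free at the cell surface. Ligand binding lets ErbB receptors pair, and their tyrosine kinases then pass the signal through adaptor proteins to the Ras-ERK and PI3K-Akt cascades, while a set of inhibitors limits it. Erbb2 binds no known ligand and acts as a partner for the other receptors, and Erbb3 has little kinase activity of its own. TGF-alpha and amphiregulin (Areg) bind Egfr, epiregulin (Ereg), HB-EGF and betacellulin (Btc) bind both Egfr and Erbb4, and neuregulin 1 (Nrg1) binds Erbb3 and Erbb4. In the developing face this family is known for its action in epithelium and in neural crest derivatives, and mice without Egfr can have a cleft palate.

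Promoter sequences were taken for the members from RefSeq (GRCm38.p6), and 6 of the 10 matched, Egfr, Erbb2, Erbb4, Tgfa, Areg and Btc. The 250 bases before the start are shown for Egfr, Erbb4 and Btc, whose levels differed most between stages, and for Areg, which had almost no reads. Capitals mark every match, on either strand, to the motifs searched. These were the GC box with the letters GGGCGG and the TATA box with the letters TATAAA. The cAMP response element was searched as TGACGTCA. The AP-1 site was searched as TGANTCA, where N is any base.
Egfr, chr11:16751953-16752202, plus strand: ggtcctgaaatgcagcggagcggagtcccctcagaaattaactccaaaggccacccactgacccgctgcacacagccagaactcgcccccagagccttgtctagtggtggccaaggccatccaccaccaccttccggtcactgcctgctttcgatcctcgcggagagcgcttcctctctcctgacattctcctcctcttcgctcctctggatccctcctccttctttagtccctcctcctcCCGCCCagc
Erbb4, chr1:69108060-69108309, minus strand: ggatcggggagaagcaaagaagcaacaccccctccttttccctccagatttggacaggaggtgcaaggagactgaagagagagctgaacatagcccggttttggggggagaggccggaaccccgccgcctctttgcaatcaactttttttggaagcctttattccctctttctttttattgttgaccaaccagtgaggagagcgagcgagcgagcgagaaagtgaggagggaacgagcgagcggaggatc
Btc, chr5:91402995-91403244, minus strand: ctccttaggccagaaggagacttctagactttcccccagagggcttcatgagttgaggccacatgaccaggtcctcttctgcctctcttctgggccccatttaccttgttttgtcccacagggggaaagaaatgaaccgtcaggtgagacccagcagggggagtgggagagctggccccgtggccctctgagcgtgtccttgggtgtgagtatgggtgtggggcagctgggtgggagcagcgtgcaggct
Areg, chr5:91139349-91139598, plus strand: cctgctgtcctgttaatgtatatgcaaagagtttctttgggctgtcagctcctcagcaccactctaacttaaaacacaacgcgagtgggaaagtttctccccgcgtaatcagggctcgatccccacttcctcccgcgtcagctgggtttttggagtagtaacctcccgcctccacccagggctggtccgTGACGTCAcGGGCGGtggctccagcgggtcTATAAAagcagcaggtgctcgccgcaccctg
The Egfr window held a GC box on the opposite strand, 9 bases before the start. The Erbb4 and Btc windows held none of these letters, and neither did that of Erbb2. The Areg window held a cAMP response element 61 bases, a GC box 52 bases and a TATA box 31 bases before the start, and the Tgfa window held GC boxes 126 and 15 bases before it. None of the matches overlapped each other. Among 32851 RefSeq promoters of the same length, 32.7% held a GC box, 12.4% a TATA box, 1.55% a cAMP response element and 6.75% an AP-1 site. The GC content was 60.8% for Egfr, 66% for Erbb2, 54% for Erbb4, 69.2% for Tgfa, 57.2% for Areg and 59.6% for Btc, against a median of 52.4% over all promoters. Btc had 4 CpG dinucleotides in its window, below the median of 6, and the other 5 had 11 to 19. These matches are descriptions of the letters only, and binding of any factor was not measured.

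The depth was 16581009 to 20836804 counts per library, and 30199 genes had at least 1 count. Levels are given as CPM, read counts relative to the library size after scaling by the trimmed mean of M-values (TMM). Replicate 3 of E10.5 stood apart from the other libraries of its stage. The SD of its log2 difference from replicates 1 and 2 over genes was 0.711 and 0.703, against 0.393 between those 2 libraries, and genes of high GC content were lower in it (Spearman's rho of the difference with GC content across genes, 0.52 and 0.54). Its 8 mesenchyme markers summed to 1009.8 CPM, against 1675 and 1719.55 CPM in the other E10.5 libraries, and its 11 epithelium markers to 909 CPM, against 491 and 557 CPM. Below, results against E10.5 are also given without this library for the members, and over the full span for the other ligands tested. For the rest of the pathway they are given by count. All 8 mesenchyme markers and all 11 epithelium markers were above the detection limit at each stage. The 5 forebrain markers summed to 108–171 CPM at E10.5, against 19.96–23.6 CPM at E11.5 and 15.3–21.6 CPM at E12.5, so markers of a tissue that the label does not name were also present, mainly at E10.5. Counts are amplified reads without molecular identifiers, so counting limits cover counting error only. A gene with at most 3 counts in each library of a stage was taken to be at or under the detection limit there.

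To compare levels between genes, CPM was divided by the length of each gene in kilobases. On this scale the partner receptors Erbb2 and Erbb3 were the highest of the 10 genes at every stage. Erbb2 stood at 12.6 ± 2.86 CPM per kb (SD, n = 3) at E10.5, 17.3 ± 0.324 at E11.5 and finally 20.9 ± 2.77 at E12.5. Erbb3 stood at 7.93 ± 1.32, 9.54 ± 0.586 and 8.52 ± 2.34 CPM per kb. The libraries of these receptors did not overlap each other or those of the next gene at any stage. At E10.5 the next levels were those of Tgfa, at 1.35 ± 0.603 CPM per kb, and Hbegf, at 1.29 ± 0.316, whose ranges overlapped. Egfr followed at 0.702 ± 0.0927 CPM per kb, separate from Hbegf above it and from Nrg1, at 0.528 ± 0.0320, below it. Egfr thus held the fifth place at E10.5. It held the third place at E11.5, at 1.88 ± 0.116 CPM per kb, and at E12.5, at 3.14 ± 0.604, although its range overlapped that of Hbegf at both stages (1.84 ± 0.323 and 2.32 ± 0.154 CPM per kb). Nrg1 was in the sixth place at all 3 stages, at 0.592 ± 0.0532 CPM per kb at E11.5 and 0.604 ± 0.0246 at E12.5. Erbb4, Btc, Areg and Ereg were the 4 lowest at every stage. The length of Hbegf in the table is 2373 bases, while GENCODE vM21 gives 4834 exon bases and other coordinates, so its place in this order depends on the gene model.

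**Figure D1:**
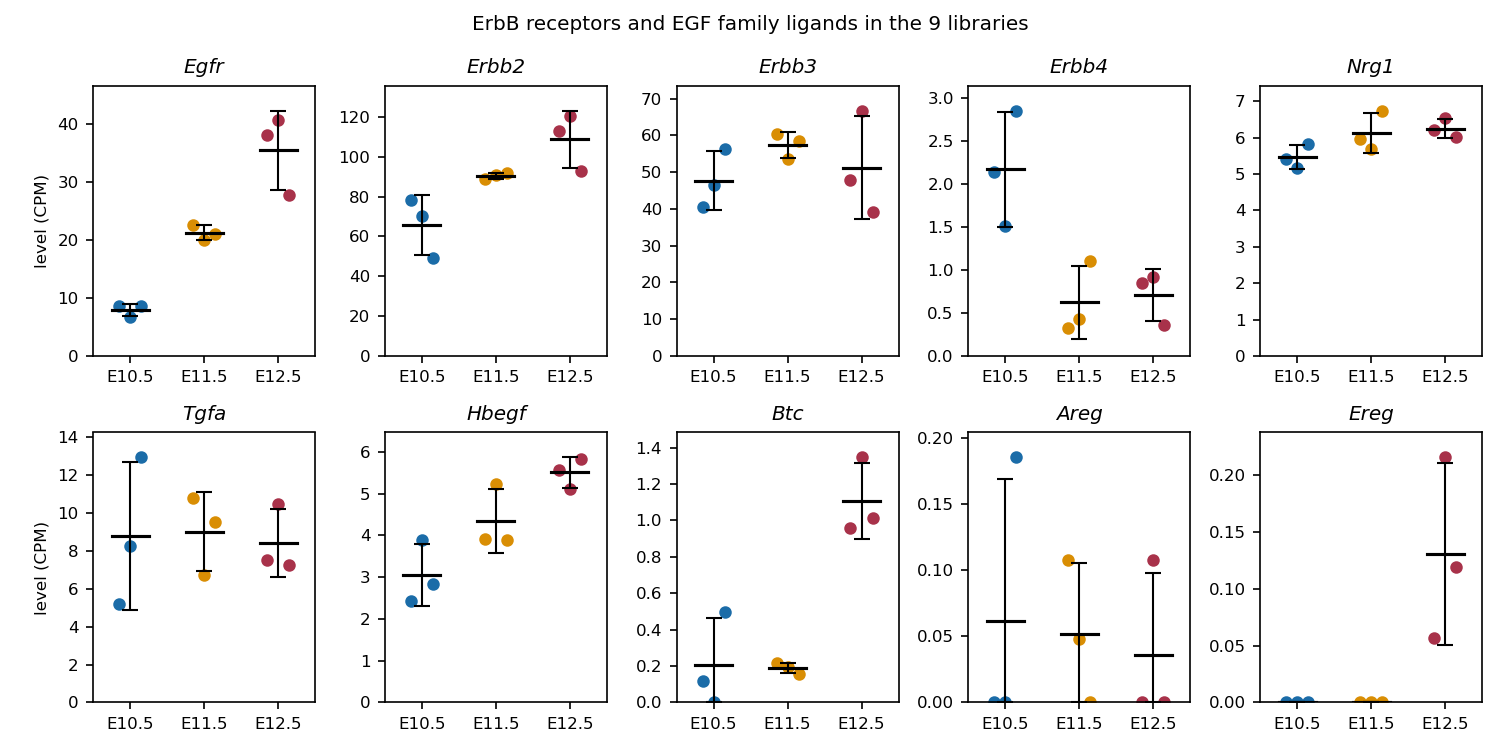
Level in CPM (vertical axis, linear and starting at 0, with its own scale in each panel) of the 4 receptors and 6 ligands by stage. Points are libraries, replicates 1 to 3 from left to right, horizontal bars are means and whiskers are the SD (n = 3, lower whisker ending at 0 where it would pass below): Egfr is higher at each later stage without overlap, Erbb4 is lower after E10.5, and Btc is higher at E12.5.

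Egfr, the receptor for EGF, TGF-alpha and amphiregulin, was the member with the clearest change, and it rose in both one-day intervals. The gene (ENSMUSG00000020122) lies on the plus strand at chr11:16752203-16918158 (GRCm38). Its level was 8.56, 6.73 and 8.55 CPM in replicates 1 to 3 of E10.5, 22.7, 20.1 and 21.1 CPM at E11.5, and 38.1, 40.7 and 27.8 CPM at E12.5. The 3 stages did not overlap, and within E12.5 replicate 3 was the lowest. In the first interval Egfr was an upregulated DEG, as were 3.46% of all genes tested, with a log2 fold change of 1.42 ± 0.155 (SE) and an adjusted p of 0.0019 (edgeR's quasi-likelihood test, Benjamini-Hochberg over all genes tested). DEGs were genes whose adjusted p was at most 0.05 and whose level moved by at least 1 on the log2 scale in either direction. In the second interval the log2 fold change was 0.74 ± 0.159 (adjusted p = 0.0138), which passed the test but was below the fold threshold. Over both days it was 2.17 ± 0.223, a 4.50-fold increase (adjusted p = 6.16e-05). Without E10.5 replicate 3 the log2 fold changes were 1.48 against E11.5 and 2.23 against E12.5, and Egfr was a DEG in both comparisons with any of the 6 libraries left out. The second interval result lost its adjusted p without E11.5 replicate 2 (0.0789), E11.5 replicate 3 (0.0667) or E12.5 replicate 1 (0.0754).

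In bulk tissue a larger number of cells expressing a gene and more RNA per cell cannot be told apart. The 8 mesenchyme markers moved with Egfr, with summed levels of 1009.8–1719.55 CPM at E10.5, 2465–2714 CPM at E11.5 and 2946–3527 CPM at E12.5, none of them at or under the detection limit. Of these, 3 were upregulated DEGs in the first interval and 4 over the full span, while 1 was downregulated in the latter. Col1a1, a fibrillar collagen gene, had 23.8–62.8 CPM at E10.5 and 531–899 CPM at E12.5. The 11 epithelium markers summed to 491–909, 546–566 and 804–884 CPM, which overlapped between E10.5 and both later stages. Of these, 2 were upregulated DEGs and 1 a downregulated one in the first interval, and 3 and 1 over the full span. Krt5, a keratin of basal epithelium, rose with Egfr, from 1.63–2.42 CPM at E10.5 to 24.8–39.9 CPM at E11.5 and 149–153 CPM at E12.5. The other basal keratins Krt14 and Krt15 were also higher at each later stage without overlap. The keratins Krt8 and Krt18 of the same list went the other way. Krt8 fell from 86.6–141 CPM at E10.5 to 54.1–68.1 CPM at E12.5, and Krt18 from 71.6–129 to 41.6–53.7 CPM. The median log2 fold change of the epithelium list was -0.19 in the first interval and -0.14 over the full span.

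Summed markers of further cell types were higher at each later stage as well. The 4 periderm markers summed to 32.1–52.8, 60.3–69.1 and 86.1–116 CPM, and the 5 markers of glia and neural crest to 22.4–25.3, 28.6–29.3 and 49.9–66.5 CPM. The 6 erythroid markers summed to 246–550, 627–676 and 832–1084 CPM. The part of any of these tissues in the Egfr result was not tested.

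Erbb2 and Erbb3 moved much less. Erbb2, the receptor without a ligand of its own (ENSMUSG00000062312, plus strand, chr11:98412470-98437716), had 78.0, 70.2 and 49.2 CPM at E10.5, 88.6, 90.6 and 91.9 CPM at E11.5, and 113, 121 and 92.6 CPM at E12.5. The stages did not overlap, but the lowest E12.5 library, replicate 3, was close to the E11.5 libraries, and E10.5 replicate 3 was well below the other 2. The log2 fold change was 0.46 ± 0.163 in the first interval (adjusted p = 0.11) and 0.26 ± 0.127 in the second interval (adjusted p = 0.196), so neither interval passed edgeR's test. Over both days Erbb2 rose by 0.73 ± 0.206 on the log2 scale (adjusted p = 0.0246), below the fold threshold. Without E10.5 replicate 3 the values were 0.29 (adjusted p = 0.00715) for the first interval and 0.57 (adjusted p = 0.0299) for the full span. The latter call was lost without E10.5 replicate 2 (adjusted p = 0.0546), E12.5 replicate 1 (0.0939) or E12.5 replicate 2 (0.0748).

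Erbb3, the neuregulin receptor that signals mainly in pairs with Erbb2 (ENSMUSG00000018166, minus strand, chr10:128567523-128589652), had 40.5, 46.4 and 56.2 CPM at E10.5, 60.3, 53.5 and 58.5 CPM at E11.5, and 47.8, 66.7 and 39.2 CPM at E12.5. Every pair of stages overlapped, and E12.5 alone spanned most of the range. The log2 fold changes were 0.27 ± 0.140 (adjusted p = 0.251) in the first interval, -0.17 ± 0.178 (adjusted p = 0.558) in the second interval and 0.11 ± 0.225 (adjusted p = 0.759) over the full span. Without E10.5 replicate 3 the first of these was 0.41 and passed the test (adjusted p = 0.00312). Over the full span it was 0.25 without E10.5 replicate 3 (adjusted p = 0.418) and -0.12 without E12.5 replicate 2.

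Erbb4, a receptor for neuregulins and for several EGF-like ligands, was the rarest receptor and was lower after E10.5. The gene (ENSMUSG00000062209) lies on the minus strand at chr1:68032186-69108059. It had 36, 26 and 46 counts in replicates 1 to 3 of E10.5, 6, 9 and 21 counts at E11.5, and 15, 17 and 6 counts at E12.5. In CPM these were 2.14, 1.51 and 2.85, then 0.323, 0.433 and 1.11, then 0.845, 0.917 and 0.358. All E10.5 libraries were above all later ones, while E11.5 and E12.5 overlapped. Over the full span Erbb4 was a downregulated DEG with a log2 fold change of -1.59 ± 0.449 (adjusted p = 0.0253), a level 3.01-fold lower. In the first interval the log2 fold change of -1.79 ± 0.491 narrowly missed the threshold in edgeR's test (adjusted p = 0.0527) and passed it in DESeq2 (0.0165). In the second interval it was 0.19 ± 0.543 (adjusted p = 0.838).

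The Erbb4 calls changed in some fits with a library left out. The call over the full span was lost without E10.5 replicate 3 (log2 fold change -1.34, adjusted p = 0.0547), E12.5 replicate 1 (-1.73, adjusted p = 0.068) or E12.5 replicate 3 (-1.28, adjusted p = 0.0875). In the first interval Erbb4 was a DEG without E10.5 replicate 3 (-1.54, adjusted p = 0.0241) and without E11.5 replicate 3 (-2.48, adjusted p = 0.044). The forebrain markers moved with Erbb4. All 5 were downregulated DEGs in the first interval and 4 of 5 over the full span, and Rax and Otp were at or under the detection limit in every E11.5 library. Sox1, a neural plate and forebrain factor, had 37.7–57.7 CPM at E10.5 and at most 1.92 CPM later. The 4 muscle markers had sums of 8.30–19.8, 3.44–4.62 and 1.67–2.82 CPM. Of these only Des fell, from 7.87–19.6 CPM at E10.5 to 0.537–1.18 CPM at E12.5. Myod1 and Myog were at or under the detection limit at E10.5 and E11.5 and were higher at E12.5. The remaining marker overlapped between all stages. The part of these tissues in the Erbb4 result was not tested.

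Among the ligands, Hbegf rose over the full span and Btc was higher at E12.5, Tgfa and Nrg1 did not pass the test in any comparison, and Areg and Ereg had almost no reads. Hbegf, which encodes heparin-binding EGF (ENSMUSG00000024486, minus strand of chromosome 18), had 2.44, 3.89 and 2.85 CPM at E10.5, 3.93, 5.24 and 3.90 CPM at E11.5, and 5.58, 5.12 and 5.84 CPM at E12.5. E10.5 lay below both later stages without overlap, though by a small margin at E11.5, and E11.5 overlapped E12.5. The log2 fold change was 0.51 ± 0.255 in the first interval (adjusted p = 0.233) and 0.33 ± 0.203 in the second interval (adjusted p = 0.3), and without E10.5 replicate 3 the former was 0.47 (adjusted p = 0.172). Over both days Hbegf rose by 0.86 ± 0.278 (adjusted p = 0.0445), below the fold threshold. This call was lost in DESeq2 (adjusted p = 0.0543) and without E10.5 replicate 1 (0.163), E10.5 replicate 3 (0.0501, log2 fold change 0.81), E12.5 replicate 1 (0.128), E12.5 replicate 2 (0.0685) or E12.5 replicate 3 (0.116). Without E10.5 replicate 2 the log2 fold change was 1.06, past the fold threshold (adjusted p = 0.0476).

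Btc, a ligand of Egfr and Erbb4, was rare and was higher at E12.5. The gene (ENSMUSG00000082361) lies on the minus strand at chr5:91357261-91402994. It had 2, 0 and 8 counts at E10.5, 4, 4 and 3 counts at E11.5, and 17, 25 and 17 counts at E12.5. In CPM this was 0.119, 0 and 0.495 at E10.5, 0.215, 0.192 and 0.158 at E11.5, and 0.958, 1.35 and 1.01 at E12.5. Every E12.5 library was above every earlier one, and the highest of the earlier ones was E10.5 replicate 3. In the second interval Btc was an upregulated DEG with a log2 fold change of 2.51 ± 0.443 (adjusted p = 0.00486), and it remained a DEG with any of the 6 libraries left out, at 2.34 to 2.61. Over the full span it was also a DEG, at 2.43 ± 0.732 (adjusted p = 0.0333). Without E10.5 replicate 3 the value was 4.09 (adjusted p = 0.00479), and the call was lost when any other of the 6 libraries was left out (log2 fold change 1.84 to 2.52, adjusted p = 0.0804 to 0.104). Btc entered the tests only through its E12.5 counts, and its counts were too low for the filter in the first interval.

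The summed markers of glia and neural crest were higher at E12.5, as Btc was. The 5 of them summed to 22.4–25.3 CPM at E10.5, 28.6–29.3 CPM at E11.5 and 49.9–66.5 CPM at E12.5, and 3 were upregulated DEGs in the second interval, with none at or under the detection limit. Sox10, the defining factor of this lineage, had 14.4–16.2 CPM at E11.5 and 26.2–38.2 CPM at E12.5. The 4 periderm markers also had higher sums in the second interval, at 60.3–69.1 CPM and then 86.1–116 CPM. Of these, 2 were upregulated DEGs in this comparison, with Krt6a at or under the detection limit until E11.5. The epithelium markers, with 3 upregulated DEGs in this comparison, and the 6 neuron markers, with 1, likewise had their E12.5 sums above those of E11.5, at 804–884 against 546–566 CPM and at 273–310 against 185–203 CPM. The erythroid and mesenchyme sums given above did too. The median log2 fold change in the second interval was 1.04 for the glia and neural crest list and 1.75 for the periderm list. It was 0.12 for epithelium, 0.09 for neurons, 0.05 for mesenchyme and -0.02 for the erythroid list, so these 4 sums do not describe most genes of their lists. The part of these cells in the Btc result was not tested.

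Tgfa, which encodes the Egfr ligand TGF-alpha (ENSMUSG00000029999, plus strand, chr6:86195223-86275719), had 5.17, 8.24 and 12.9 CPM at E10.5, 10.8, 6.73 and 9.53 CPM at E11.5, and 7.49, 10.5 and 7.28 CPM at E12.5. All 3 stages overlapped, and the E10.5 libraries alone held both the lowest and the highest value. The log2 fold change was 0.04 ± 0.334 in the first interval (adjusted p = 0.955), -0.10 ± 0.219 in the second interval (adjusted p = 0.79) and -0.05 ± 0.326 over the full span (adjusted p = 0.925). Without E10.5 replicate 3 the comparisons with E10.5 gave 0.43 (adjusted p = 0.163) and 0.34 (adjusted p = 0.374).

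Nrg1, the ligand of Erbb3 and Erbb4 (ENSMUSG00000062991, minus strand, chr8:31814551-32884029), had 5.41, 5.17 and 5.82 CPM at E10.5, 5.97, 5.67 and 6.74 CPM at E11.5, and 6.20, 6.52 and 6.02 CPM at E12.5. E12.5 lay just above E10.5 without overlap, and the other pairs of stages overlapped. The log2 fold change was 0.17 ± 0.176 (adjusted p = 0.581), 0.02 ± 0.174 (adjusted p = 0.943) and 0.20 ± 0.231 (adjusted p = 0.57) in the first interval, the second interval and the full span. In the comparisons with E10.5 it was 0.22 (adjusted p = 0.367) and 0.25 (adjusted p = 0.415) without E10.5 replicate 3. Of the exon bases of Nrg1, 4.66% are shared with Gm26578 on the other strand, and whether reads were counted by strand is not stated. The shared part was 1.82% for Tgfa, 3.42% for Ereg and 0.173% for Erbb2, and the other members shared none.

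Areg and Ereg, which encode amphiregulin and epiregulin, lie in the same region of chromosome 5 as Btc. Areg (ENSMUSG00000029378, plus strand, chr5:91139599-91148432) had 0, 0 and 3 counts at E10.5, 2, 1 and 0 counts at E11.5, and 0, 2 and 0 counts at E12.5, which was at or under the detection limit in all 9 libraries. Ereg (ENSMUSG00000029377, plus strand, chr5:91074622-91093646) had 0 counts in the 6 libraries of E10.5 and E11.5, which allows up to 3 counts per library, and 1, 4 and 2 counts at E12.5. Neither gene passed the filter on low counts in any comparison. No fold change is given for them, since differences at these levels were not detectable at this depth.

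**Figure D2:**
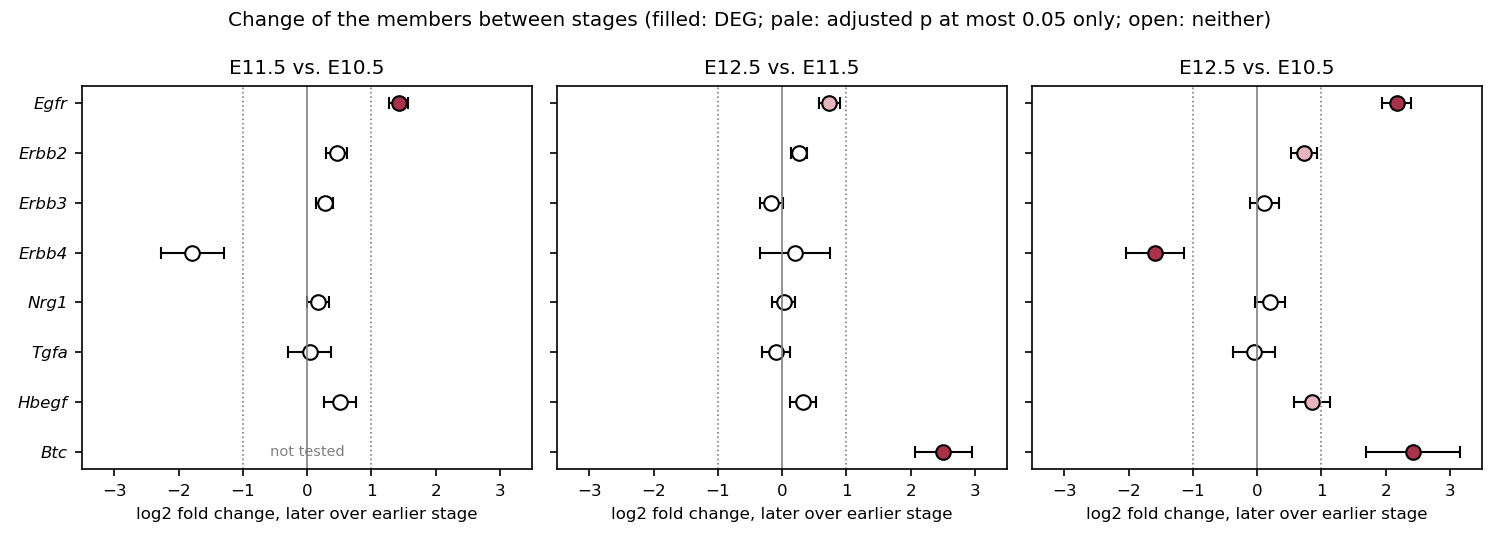
Log2 fold change (horizontal axis, above 0 where the later stage is higher) for the 8 members tested, in 3 panels for the 3 comparisons. Points are estimates, whiskers are SE, dotted lines mark an absolute log2 fold change of 1 and fill shows the call: Egfr is a DEG in the panels against E10.5, Btc in those with E12.5 (2.51 and 2.43), and Erbb4 at the full span (-1.59).

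Counted over the members tested, 1 of 7 was a DEG in the first interval (Egfr, upregulated), against 6.07% of the 15708 genes tested (3.46% up and 2.61% down). In the second interval it was 1 of 8 (Btc, upregulated), against 5.1% of 15808 genes (4.14% up and 0.962% down). Over the full span it was 3 of 8 (Egfr and Btc up, Erbb4 down), against 15% of 15899 genes (9.97% up and 5.08% down). Btc, which was tested only because of its E12.5 counts, had no part in the first of these counts, and without it they were 0 of 7 in the second interval and 2 of 7 over the full span. At an adjusted p of at most 0.05 alone, 1 of 7 members passed in the first interval, against 11.8% of all genes tested (6.19% up and 5.58% down). In the second interval 2 of 8 passed, both up, against 12.2% (7.61% up and 4.57% down). Over the full span 5 of 8 passed, 4 up and 1 down, against 24.6% (14% up and 10.5% down). Without Btc these counts were 1 of 7 and 4 of 7. The stages did not overlap for 4 of 7, 3 of 8 and 6 of 8 members, and this was so for 36.6%, 35.4% and 42.4% of all genes tested. The median log2 fold change of the members tested was 0.27, 0.23 and 0.47, against -0.03, 0.02 and -0.01 for all genes. Of the ligands, 0 of 3 passed edgeR's test in the first interval, where 0 had an unadjusted p under 0.05 and DESeq2 also called 0. With 3 libraries against 3 an exact permutation test of a single gene cannot go below p = 0.1. The comparisons share libraries, so their counts are not independent of each other.

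To see whether a gene moved differently in the 2 intervals, the difference between the change from E11.5 to E12.5 and that from E10.5 to E11.5 was tested on all 9 libraries. No member passed edgeR's test (0 of 8, against 1.18% of 16375 genes), and 2 had an unadjusted p under 0.05. Egfr rose by less in the second interval, with a difference of -0.68 ± 0.304 on the log2 scale (adjusted p = 0.404). For Erbb4 the difference was 1.99 ± 0.916 (adjusted p = 0.417), and for Btc it was 2.60 ± 1.35 (adjusted p = 0.485). A difference between the intervals was therefore not shown for any member, including Btc, which was a DEG in the second interval.

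**Figure D3:**
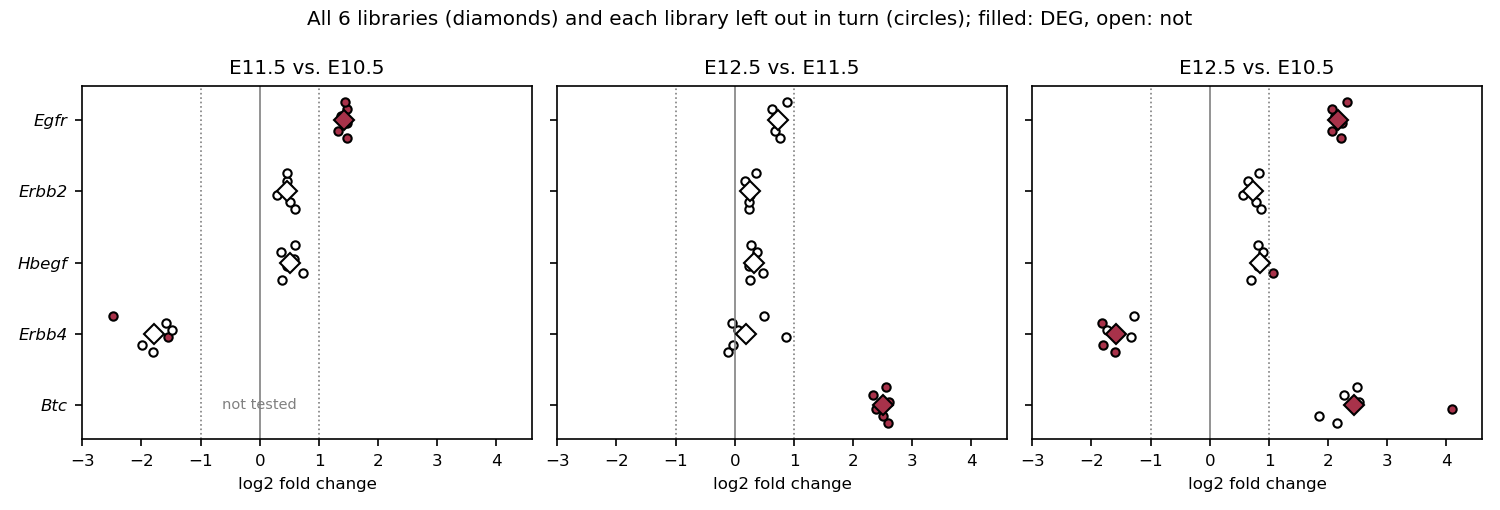
Log2 fold change (horizontal axis) of the 5 members that passed the test in at least 1 comparison, with all 6 libraries (diamonds) and with each library left out in turn (circles). Filled symbols are DEGs, open ones are not, and dotted lines mark an absolute log2 fold change of 1: the Egfr symbols stay filled against E10.5, the Btc value for the full span is 4.09 without E10.5 replicate 3, and 3 of the 6 Erbb4 circles are filled in the same panel.

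The make-up of the receptors was described as the share of each in their summed CPM per kb. The share of Egfr was 3.29 ± 0.552% at E10.5, 6.51 ± 0.324% at E11.5 and finally 9.61 ± 0.525% at E12.5, without overlap of libraries between stages. Erbb2 made up 58.5 ± 9.59%, 60.2 ± 1.69% and 64.3 ± 2.88%. Erbb3 made up 37.4 ± 8.98%, 33.1 ± 1.42% and 25.9 ± 2.94%. In E10.5 replicate 3 these shares were 47.7% and 47.3%, while Erbb2 was at 61.5% or more in the other libraries of that stage. Erbb4 was at most 1.17% in any library. The summed receptor level was 21.4 ± 1.48 CPM per kb at E10.5, 28.8 ± 0.654 at E11.5 and finally 32.6 ± 5.58 at E12.5.

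Among the ligands Hbegf, Tgfa and Nrg1 together made up nearly all of the summed level at each stage. Hbegf was 40.4 ± 9.45%, 47.1 ± 8.61% and 51.5 ± 6.05% of it, Tgfa 40.2 ± 8.40%, 35.5 ± 7.71% and 28.4 ± 4.25%, and Nrg1 16.9 ± 4.46%, 15.2 ± 1.69% and 13.3 ± 0.430%. The share of Btc was 1.28 ± 1.37%, 1.07 ± 0.134% and 5.38 ± 0.685%. The summed ligand level was 3.27 ± 0.833, 3.90 ± 0.116 and 4.53 ± 0.272 CPM per kb, below that of the receptors in every library. These shares were not tested, and those of the ligands depend on the Hbegf gene model.

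**Figure D4:**
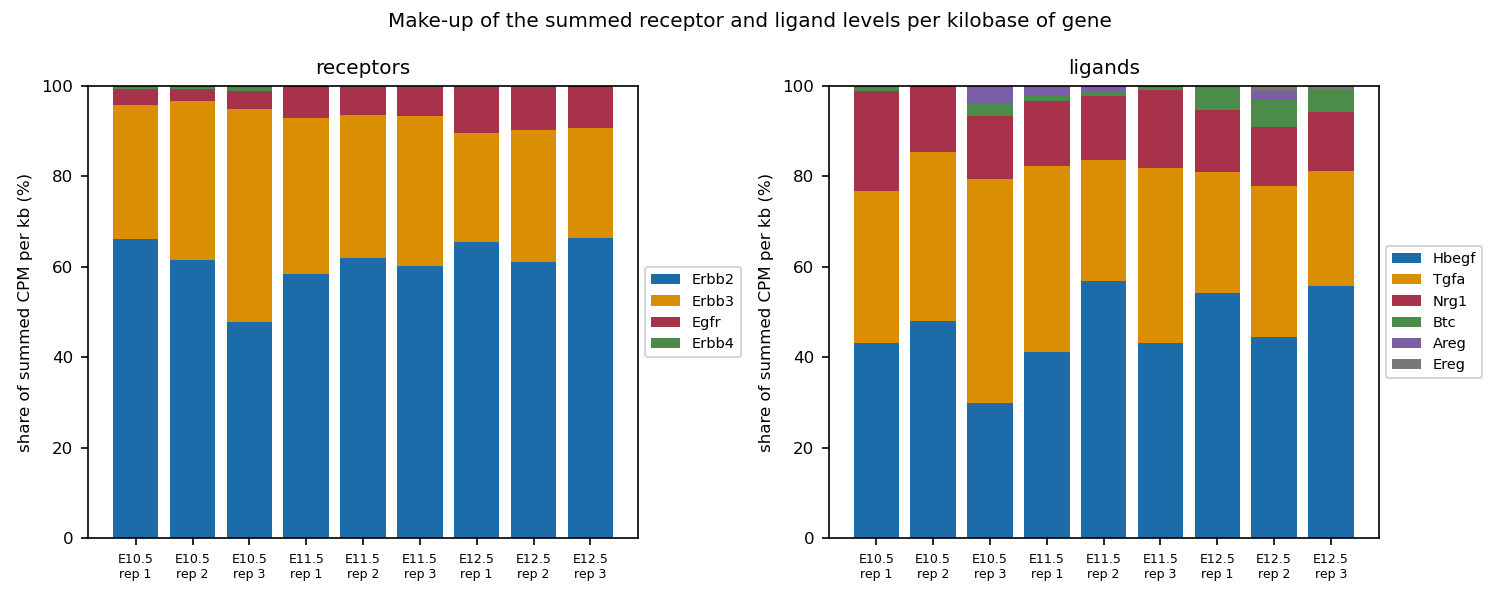
Share of each gene in the summed CPM per kb of the 4 receptors (left) and of the 6 ligands (right), in percent (vertical axis), with 1 bar per library and 3 libraries per stage. Egfr takes a larger share of the receptor bars at each later stage (means 3.29, 6.51 and 9.61%), and Btc a visible share of the ligand bars at E12.5.

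The other genes of the pathway were followed in a list of 75 genes, of which 73 passed the filter on low counts in each comparison. In the first interval, 2 of 73 were DEGs and both were downregulated, against 6.07% of all genes tested. In the second interval the count was 0 in edgeR's test, against 5.1% of all genes tested. There 22 had an unadjusted p under 0.05, and DESeq2 also called 0 DEGs. Over the full span, 4 of 73 were DEGs, all downregulated, against 15% of all genes. At an adjusted p of at most 0.05 alone, 9 of 73 passed in the first interval (4 up, 5 down), which was 12.3% of the list against 11.8% of all genes tested. The second interval had 7 that passed (2 up, 5 down), or 9.59% against 12.2%, and over the full span 14 (4 up, 10 down), or 19.2% against 24.6%. The median log2 fold change of the list was -0.02, -0.07 and -0.05.

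Most of these calls at the adjusted p were lost in at least 1 fit with a library left out. Such fits have fewer libraries and less power, which was not told apart from dependence on single libraries. Among all genes the first interval had 954 DEGs, and 395 to 1592 with a library left out. When each library was left out in turn, 8 of the 9 in the first interval were lost at least once, 6 of the 7 in the second interval and 10 of the 14 over the full span. The calls that passed with any library left out were Dusp5 in the first interval, Plcg2 in the second interval, and Plcg2, Pik3r1, Stat3 and Dusp5 over the full span. Leaving out E10.5 replicate 3 lost no call of the list in either comparison with E10.5, and 26 further genes of the list passed in the first interval and 2 over the full span. More genes were called among all genes too. Their DEGs went from 954 to 1592 in the first interval and from 2392 to 2738 over the full span. The share of all genes that passed at the adjusted p alone was not counted for these fits.

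The other ligands of the family were all low. Egf, the founding ligand, had 21–39 counts per library at E10.5, 21–29 at E11.5 and finally 13–25 at E12.5, with a log2 fold change of -0.84 ± 0.403 over the full span (adjusted p = 0.157), which was -1.01 without E10.5 replicate 3 (adjusted p = 0.0837). Nrg2 had 8–13, 7–13 and 17–30 counts, so that its E12.5 libraries lay above all earlier ones, and its log2 fold change in the second interval was 1.16 ± 0.396 (adjusted p = 0.081). Nrg4 had 8–29, 10–18 and 7–14 counts. Over the full span the log2 fold change was 0.97 ± 0.422 for Nrg2 (adjusted p = 0.121) and -0.89 ± 0.516 for Nrg4 (adjusted p = 0.237). Without E10.5 replicate 3 it was 0.81 for Nrg2 (adjusted p = 0.206) and -1.23 for Nrg4 (adjusted p = 0.0672). None of the 3 passed the test in any comparison. Epgn, which encodes epigen, had 0–8 counts and Nrg3 0–4 counts per library, and neither was tested. Among 8 genes of ligand release, 1 passed in the first interval (12.5%, against 11.8% of all genes) and 2 in the second (25%, against 12.2%). Over the full span 0 passed, against 24.6%. Bace1 rose by 0.46 ± 0.106 in the first interval (adjusted p = 0.0305), which was lost without any single library except E10.5 replicate 3 (0.0574 to 0.123). In the second interval Rhbdf1, a partner of the main sheddase, rose by 0.45 ± 0.121 (adjusted p = 0.0358). Adam19, a metalloprotease, fell by 0.73 in the same comparison (adjusted p = 0.0329). The calls of Rhbdf1 and Adam19 were lost in most fits with a library left out. That of Rhbdf1 was lost without any E11.5 library or E12.5 replicate 1 (adjusted p = 0.102 to 0.156) and in 5 of 9 other settings (up to 0.165). That of Adam19 was lost without any single library except E12.5 replicate 2 (0.0643 to 0.154) and in the fit on all 9 libraries (0.195), and its log2 fold change was -1.04 to -0.59 over the 6 fits.

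Of the 20 adaptors and direct substrates, 2 passed in the first interval (10%, against 11.8% of all genes), 2 in the second interval (10%, against 12.2%) and 5 over the full span (25%, against 24.6%). Plcg2, a phospholipase C, had 11.9, 18.2 and 16.8 CPM at E10.5, 8.61, 7.93 and 8.64 CPM at E11.5, and 4.85, 4.04 and 4.06 CPM at E12.5. It was lower at each later stage without overlap, and its log2 fold change over the full span was -1.85 ± 0.247 (adjusted p = 0.000368). Shc3, a neuronal form of the Shc adaptor, had 5.88, 6.50 and 8.80 CPM at E10.5, 3.497, 1.92 and 2.84 CPM at E11.5, and 1.75, 3.83 and 2.62 CPM at E12.5. Its later libraries lay below all of E10.5, with log2 fold changes of -1.36 ± 0.278 in the first interval (adjusted p = 0.0193) and -1.36 ± 0.328 over the full span (adjusted p = 0.0124). Cbl and Cblb, ubiquitin ligases that send activated receptors to degradation, fell by 0.80 and 0.58 over the full span (adjusted p = 0.0255 and 0.0414). Gab1, a docking protein, rose by 0.55 ± 0.165 (adjusted p = 0.0324). The call was lost for Cbl without E10.5 replicate 2 or E12.5 replicates 1 or 3 (adjusted p up to 0.119). For Cblb it was lost without these or E10.5 replicate 1 (up to 0.151), and under upper quartile normalization (0.0535). For Gab1 it was lost without any single library except E10.5 replicate 3 (up to 0.153).

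Within the cascades, 1 of the 12 Ras-ERK genes passed in the first interval (Myc, which fell by 0.75, adjusted p = 0.0145) and 1 over the full span (Braf, which fell by 0.70, adjusted p = 0.0303). This was 8.33% in each, against 11.8% and 24.6% of all genes, and 0 passed in the second interval, against 12.2%. The Myc call was lost without any E11.5 library (adjusted p = 0.0514 to 0.0905). That of Braf was lost without E10.5 replicates 1 or 2 or E12.5 replicates 1 or 3 (0.0548 to 0.111). Of the 13 PI3K, Akt and Stat genes, 3 passed in the first interval, all higher later (23.1%, against 11.8% of all genes). In the second interval 0 of the 13 passed edgeR's test, against 12.2%, and 2 passed at the adjusted p of DESeq2. Over the full span 3 passed, 2 higher and 1 lower (23.1%, against 24.6%). Pik3r1, the main regulatory subunit of PI3K, had 47.4, 45.2 and 53.2 CPM at E10.5, 87.9, 71.9 and 86.0 CPM at E11.5, and 82.0, 116 and 82.6 CPM at E12.5. E10.5 did not overlap the later stages, and Pik3r1 rose by 0.76 ± 0.122 in the first interval (adjusted p = 0.00808) and by 0.95 ± 0.191 over the full span (adjusted p = 0.00467). Stat3, a transcription factor activated by receptor kinases, rose by 0.56 ± 0.147 (adjusted p = 0.0453) and 0.81 ± 0.200 (adjusted p = 0.0132) in the same comparisons. In the first interval the Pik3r1 call was lost without E11.5 replicates 1 or 3 (adjusted p = 0.0557 and 0.0563). That of Stat3 was lost there without E10.5 replicate 1 or any E11.5 library (0.11 to 0.189) and with the replicate block (0.0937). Pik3cb, a catalytic subunit of PI3K, fell by 0.83 ± 0.243 over the full span (adjusted p = 0.0302), and this was lost without E12.5 replicates 1 or 3 (0.103 and 0.101).

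The inhibitors held the other pathway DEGs. Of the 17 inhibitors, 2 passed in the first interval (11.8%, against 11.8% of all genes) and 3 in the second interval (17.6%, against 12.2%). Over the full span 5 passed (29.4%, against 24.6%). Dusp5, a nuclear phosphatase of ERK, had 18.9, 21.4 and 17.2 CPM at E10.5, 8.18, 8.13 and 9.01 CPM at E11.5, and 6.25, 4.53 and 5.37 CPM at E12.5. It was lower at each later stage without overlap, with log2 fold changes of -1.18 ± 0.147 in the first interval (adjusted p = 0.00313) and -1.82 ± 0.225 over the full span (adjusted p = 0.000218). Dusp4, a related phosphatase, had 37.9, 45.7 and 36.4 CPM at E10.5, 23.4, 29.6 and 27.3 CPM at E11.5, and 8.001, 25.6 and 11.9 CPM at E12.5. Its E12.5 replicate 2 lay within the E11.5 range, and the log2 fold change over the full span was -1.39 ± 0.351 (adjusted p = 0.0153). Dusp6, the cytoplasmic phosphatase of ERK, fell by 0.54 and Spred2, an inhibitor of Ras-ERK signaling, by 0.69 in that comparison (adjusted p = 0.0386 and 0.0452), while Socs5, which promotes receptor degradation, rose by 0.60 ± 0.177 (adjusted p = 0.0316). The calls of Dusp6, Spred2 and Socs5 were lost without any single library except E10.5 replicate 3 (adjusted p up to 0.197, 0.108 and 0.152), and those of Dusp6 and Spred2 also under upper quartile normalization. Lrig1, a membrane protein that restrains ErbB receptors, rose by 0.61 ± 0.139 in the second interval (adjusted p = 0.0177), which was lost without any E11.5 library or E12.5 replicate 1 (0.0572 to 0.0987).

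Without E10.5 replicate 3 all 4 of these pathway DEGs were still called over the full span, and both in the first interval. Dusp5 and Plcg2 were DEGs over the full span with any library left out, while Shc3 and Dusp4 lost the call without E12.5 replicate 1 or E12.5 replicate 3, and Shc3 lost it in the first interval without any of the E11.5 libraries. Of the 5 forebrain markers, 5 were downregulated DEGs in the first interval and 4 over the full span, and their part in these results was not tested.

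**Figure D5:**
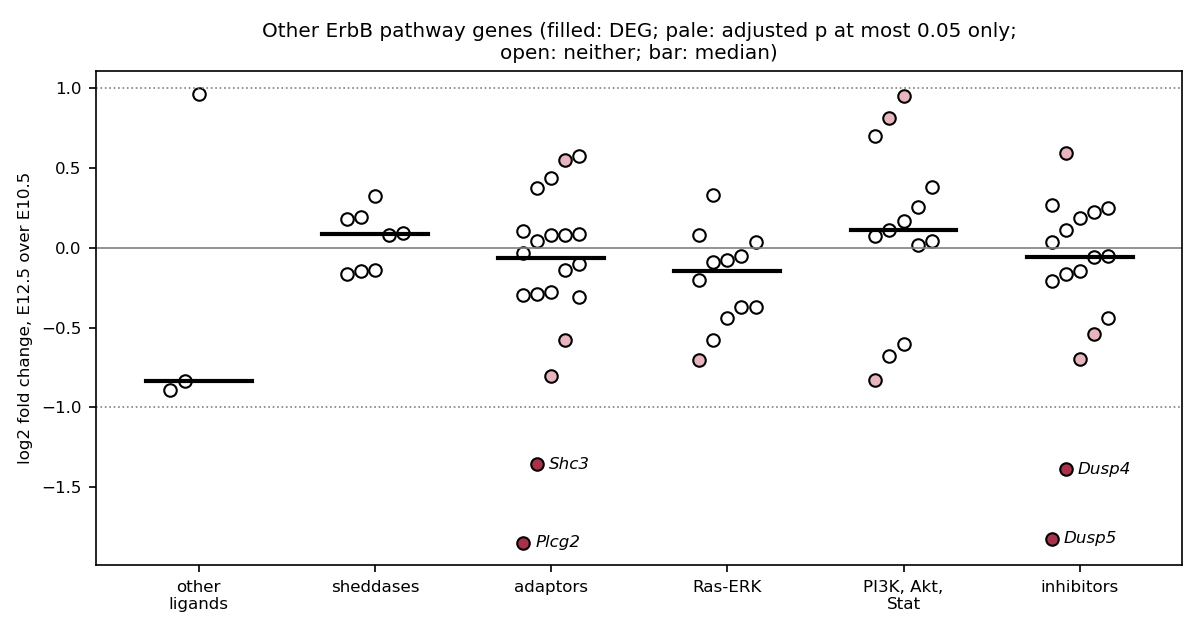
Log2 fold change of E12.5 over E10.5 (vertical axis) for the 73 other pathway genes tested, in 6 groups by role. Points are genes, thick bars are group medians, dotted lines mark an absolute log2 fold change of 1 and fill shows the call: the 4 DEGs, Plcg2, Shc3, Dusp5 and Dusp4, are all lower at E12.5.

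The genes whose log2 CPM followed each member most closely over the 9 libraries were taken from 16367 other genes. Pearson's r was 0.993 for Gm9899 and Pcdhb4 and 0.991 for Ahnak with Egfr, and 0.988 for Ednrb, 0.982 for Kirrel3 and 0.980 for Sostdc1 with Btc. For Erbb4 the closest were Nat8l (0.949), Nr5a1 (0.943) and AW047730 (0.941), and for Hbegf Gm5628 (0.974), Gstm6 (0.941) and Gm28175 (0.939). Erbb2 was closest to Shisa5 and Adamts7 (0.988) and Nfic (0.987), and Erbb3 to Ocrl (0.972), Myo9a (0.971) and Cbfa2t2 (0.969). The closest genes to Nrg1 were Sowaha (0.957), Kcnk3 (0.928) and Zfp248 (0.915), and those to Tgfa were Ufl1 (0.928), Rspry1 and Zfp426 (0.918). These values are descriptions over 9 points that share stages and libraries, and the highest of so many correlations is high by selection.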

How the data were processed

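Lambdoidal junction tissue was measured by bulk RNA-seq (TruSeq, total RNA) in 9 libraries, 3 per stage, grouped by the stage in the labels. The authors mapped reads to GRCm38/mm10 with HISAT2 2.0.5, per the submitters' processing notes, and counted them per gene with featureCounts. The strand setting and the treatment of reads with several positions are not given in the sources used here. The deposited table holds whole-number read counts per gene, without normalization. It also holds FPKM values computed by the authors, and the log2 fold change and p-value columns of the authors' own comparisons. These deposited columns were not used.

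From the counts, every comparison of 2 stages used only their 6 libraries and was run in R 4.3.3 with edgeR 4.0.16 (filterByExpr, TMM, quasi-likelihood test), with Benjamini-Hochberg adjustment over all genes tested. This count test stands in for the DESeq2 test of the study, and DESeq2 1.42.0 was run as an alternative. The SE was derived from the log2 fold change and its F statistic. CPM used TMM-scaled sizes of all 9 libraries. Correlations were taken on log2 CPM (prior count 2). The procedure was tested on simulated data. Coordinates were taken from the deposited table, while exon overlaps and GC content come from GENCODE vM21. Figures were drawn in Python 3.11.15.

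The depth of 16581009 to 20836804 counts per library leaves genes with a few counts with large counting error. The alternatives were DESeq2's size factors, upper quartile normalization, DESeq2, no filter, 1 fit of all 9 libraries, a block for the replicate number, removal of each library's trend with GC content (lowess, span 0.3), both together, hemoglobin genes left out, glmTreat, other thresholds, and each library left out in turn.

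All 10 members were named. Of the other pathway genes, the text names every DEG, up to the 10 genes with the smallest p-values in a comparison, and the other ligands, and of the marker lists up to 3 genes each. Further pathway genes that passed the test, the keratins Krt8 and Krt18, and Fabp7 were named after their values were seen. For each member tested, the 3 closest genes by Pearson's r were named. The members, the pathway list and the marker lists were chosen with earlier results of these data known.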

Additional observations from a re-analysis of the deposited data

How the results depend on the processing

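The member DEG count of the first interval was 1, and it was 2, with Erbb4 added, under DESeq2, without the low-count filter, in the fit on all 9 libraries and with GC correction, and 0 under glmTreat, with 1 to 2 when a library was left out. For the second interval it was 1, then 2 without the fold threshold and 0 under glmTreat, and 1 with any library left out. For the full span it was 3, then 5 without the fold threshold, 1 at an adjusted p of at most 0.01 and 1 under glmTreat, and 1 to 3 when a library was left out (1 without E12.5 replicate 1 or replicate 3). The pathway count of the first interval was 2, then 9 without the fold threshold, 1 at the stricter p and 0 under glmTreat, and 1 to 3 when a library was left out (3, with Plcg2 added, without E10.5 replicate 1). That of the second interval was 0, then 7 without the fold threshold and 1 with GC correction (Plcg2), and 0 to 3 when a library was left out (3 without E12.5 replicate 2). That of the full span was 4, then 14, 2 at the stricter p and 2 under glmTreat, and 3 to 6 when a library was left out. The difference between intervals passed for 0 members under all alternatives run. Tgfa, which never passed, changed sign over the full span under upper quartile normalization (0.0087).

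No pairing of the samples by replicate number was seen. Deviations of libraries with the same number from their stage means correlated at -0.15 to 0.22, and those with different numbers at -0.22 to 0.22. With so few pairs and such similar ranges, this check cannot exclude pairing. With the replicate block, the member count of the first interval was 2, also with GC correction, and the pathway count of the second interval was 2 with both the block and GC correction (Plcg2 and Dusp4). Tgfa over the full span was 0.020 with the block and 0.0026 with both, and Hbegf in that comparison missed the threshold (adjusted p = 0.0507). For no other count of member or pathway DEGs did the block move the value by over 1.5 times.

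When a library was left out, some values that did not pass the test changed sign. Tgfa ranged from -0.23 to 0.43 in the first interval, from -0.29 to 0.032 in the second interval, from -0.34 to 0.34 over the full span and from -0.56 to 0.17 in the difference between intervals. Erbb4 and Nrg1 ranged from -0.12 to 0.87 and from -0.047 to 0.080 in the second interval, Erbb3 from -0.12 to 0.27 over the full span and Nrg2 from -0.38 to 0.021 in the first interval. In the difference between intervals Hbegf ranged from -0.37 to 0.14 and Nrg1 from -0.24 to 0.019. The number of DEGs among all genes was 954, 806 and 2392 for the first interval, the second interval and the full span. It was 1849, 1926 and 3906 without the fold threshold, 213, 144 and 933 under glmTreat, and 462, 498 and 1680 at the stricter p. With a library left out it was 395 to 1592, 502 to 1181 and 1895 to 2738, and 1592 was without E10.5 replicate 3. The causes of these shifts were not tested. Depth limits Areg, Ereg, Btc and Erbb4 most.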
